A study of Rattus norvegicus with 6 samples.

Results

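The collagen chain genes, those whose symbol is Col, a number, the letter a and a number, were examined in cultured rat aortic cells. They were 42 of the 16770 genes in the deposited table, and membership was set by the symbol. The cells were grown from pieces of the proximal aorta of 3-month-old rats, with the endothelial face down, in endothelial culture medium that held serum. Wistar Kyoto rats (WKY), the normotensive control strain, were compared with spontaneously hypertensive rats (SHR), and the labels name no agent or genetic change for either. Each strain had 3 libraries of total RNA. Replicates 1 and 2 belonged to batch 1 and replicate 3 to batch 2 by the labels, which do not say what the batch was, nor whether each library came from its own culture, so p-values measure only the spread between these libraries.

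Collagens are trimers of chains wound into a triple helix. Fibrillar collagens form the tensile fibres of the vessel wall, fibril-associated collagens sit on those fibres, and basement membrane collagens form or anchor the sheet under endothelium and around smooth muscle. Network collagens build beaded filaments (collagen VI) or hexagonal lattices (collagens VIII and X), and transmembrane collagens span the cell surface. In some collagens the chains of 1 trimer come from separate genes, so ratios between such partner genes are described beside the levels. Of the 42 genes, 11 were fibrillar, 8 of the basement membrane, 9 fibril-associated, 8 network, 3 transmembrane and 3 of other kinds (Col7a1, Col26a1 and Col28a1).

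The sample titles name the cells endothelial cells, and this label did not match their endothelial markers. Of 12 such markers 10 were found, and their summed level was 18.65 to 23.9 CPM (counts scaled to a common library total) in WKY and 19.6 to 37.6 CPM in SHR. Egfl7, also found outside endothelium, held 6.39 to 27.2 CPM of it. Cdh5, the endothelial cadherin, was at 0 in 4 libraries and at most 0.105 CPM in the others, below the 0.151 to 0.187 CPM that 3 counts were worth. The level of Pecam1 was at most 2.18 CPM. In contrast, 9 smooth muscle markers summed to 790 to 1053 CPM in the batch 1 libraries, 8698 CPM in WKY replicate 3 and 2176 CPM in SHR replicate 3. The 10 fibroblast markers, none a collagen, summed to 649 to 1981 CPM in WKY and to 3989, 2385 and 14620 CPM in SHR. In SHR replicate 3, 1 gene held 11360 CPM of that sum. The 8 mesothelial markers were highest in SHR replicate 3 (1370 CPM, against 174 to 679 CPM elsewhere), and the 5 pericyte markers in WKY replicate 3 (530 CPM, against 28.5 to 123.5 CPM). The 6 leukocyte markers summed to 28.9 to 67.8 CPM, with Ptprc and Adgre1 at 0 in all 6 libraries. The 6 found of 7 cartilage markers summed to 4.51 to 108 CPM, with Matn1 at 0 and 1 gene holding 103.8 CPM of the highest sum. Libraries held 18462051 to 19947278 counts.

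The start sites of 3 pairs of collagen IV genes lie head to head. RefSeq promoter windows (assembly GRCr8, from 250 bases before to 50 after a gene's start) were found for 33 of the 42 genes, all but Col1a1, Col3a1, Col2a1, Col14a1, Col12a1, Col9a3, Col22a1, Col6a2 and Col25a1. The windows of Col4a1 and Col4a2 share 176 bases, with start sites 77 bases apart on opposite strands, and those of Col4a3 and Col4a4 share 88 bases, with start sites 413 bases apart. The start sites of Col4a5 and Col4a6 are 1415 bases apart, and their windows share none. Shown here are the window that holds both the Col4a1 and the Col4a2 start, those of Col4a5 and Col4a6, both of which rose in batch 2, and that of Col18a1, whose batch difference was the largest. Each is printed 5′ to 3′ along its own gene. Capitals mark the CCAAT box (CCAAT, or ATTGG on the other strand) and the GC box (GGGCGG, or CCGCCC on the other strand). The TATA box letters TATAAA were searched on both strands too and are in none of these 4 windows. No marked motif overlaps another.
Col4a1, chr16:84885347-84885646, plus strand: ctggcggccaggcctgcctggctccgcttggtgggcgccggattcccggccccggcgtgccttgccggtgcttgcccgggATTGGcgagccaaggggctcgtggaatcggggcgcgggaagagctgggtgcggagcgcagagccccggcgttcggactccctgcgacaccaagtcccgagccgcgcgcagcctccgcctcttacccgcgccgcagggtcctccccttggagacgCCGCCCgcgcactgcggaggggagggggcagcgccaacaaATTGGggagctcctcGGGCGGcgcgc
Col4a5, chrX:109907109-109907408, plus strand: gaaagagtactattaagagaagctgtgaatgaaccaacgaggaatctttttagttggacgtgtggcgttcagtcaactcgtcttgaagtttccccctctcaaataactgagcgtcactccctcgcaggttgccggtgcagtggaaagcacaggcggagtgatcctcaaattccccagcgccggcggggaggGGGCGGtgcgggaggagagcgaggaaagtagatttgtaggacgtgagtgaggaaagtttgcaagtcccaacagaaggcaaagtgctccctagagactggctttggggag
Col4a6, chrX:109905895-109906194, minus strand: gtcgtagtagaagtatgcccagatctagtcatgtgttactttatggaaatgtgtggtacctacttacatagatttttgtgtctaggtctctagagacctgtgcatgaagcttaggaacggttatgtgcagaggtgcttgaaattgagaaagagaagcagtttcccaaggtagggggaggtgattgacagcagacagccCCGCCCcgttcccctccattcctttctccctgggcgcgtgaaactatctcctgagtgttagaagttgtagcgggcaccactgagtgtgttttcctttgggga
Col18a1, chr20:11473395-11473694, plus strand: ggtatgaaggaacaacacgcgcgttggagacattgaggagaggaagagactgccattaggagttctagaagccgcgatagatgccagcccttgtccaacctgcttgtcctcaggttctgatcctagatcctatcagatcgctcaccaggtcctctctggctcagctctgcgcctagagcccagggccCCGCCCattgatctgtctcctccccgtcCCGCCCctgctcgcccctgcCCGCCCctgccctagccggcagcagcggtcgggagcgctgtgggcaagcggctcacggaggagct
For each collagen gene 1 window was counted, while the comparison holds all 33469 windows of that length, of which a gene can have several. The GC box letters were in 19 of the 33 collagen windows (57.6%, against 33.1% of all windows). The CCAAT letters were in 10 (30.3% against 37.5%), and the TATAAA letters in 3 (9.09% against 14.2%), those of Col1a2, Col10a1 and Col17a1. A match describes the letters of the window and is not a bound site. These coordinates belong to GRCr8 and not to Rnor_6.0, the build named in the submitters' notes.

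Collagen transcripts took 1.405%, 1.99% and 3.01% of all counts in WKY replicates 1, 2 and 3, and 2.65%, 2.37% and 2.20% in SHR replicates 1, 2 and 3. Values are given in this order of replicates throughout, so the last of each strain is the batch 2 library. WKY spanned the whole range, from the lowest library (replicate 1) to the highest (replicate 3), and the SHR libraries lay between them. Fibrillar genes gave 51.8% to 63.8% of collagen counts, network genes 20.8% to 30.2%, basement membrane genes 12.9% to 20.5%, and fibril-associated genes 0.425% to 2.585%. Transmembrane genes gave at most 0.0548% and the other kinds at most 0.126%. Counts were not divided by transcript length, so shares compare libraries and not the amounts of different chains. As these are bulk cultures, fewer cells of a type and less RNA per cell cannot be told apart in any value here.

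**Figure D1:**
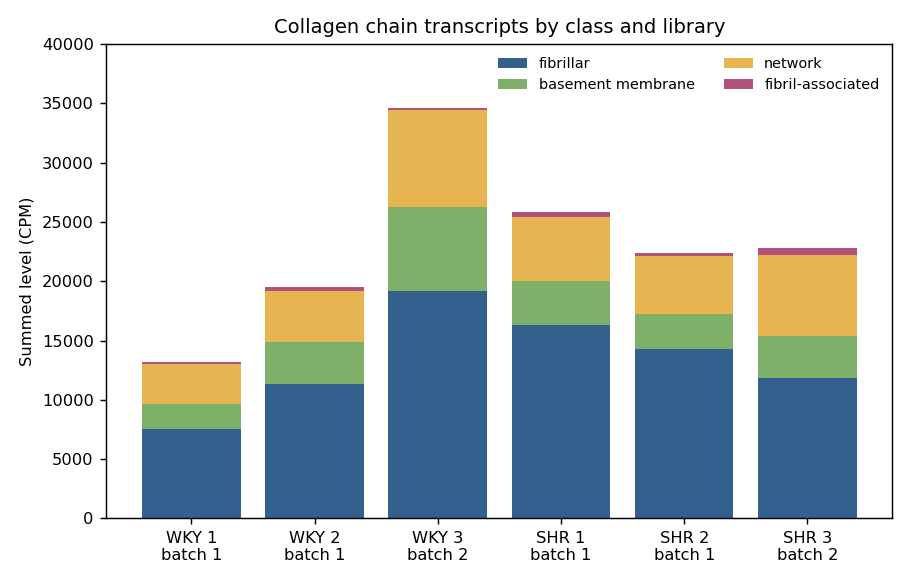
Summed level of collagen chain transcripts in each library, in CPM, as stacked bars of 4 classes. The transmembrane and other classes are left out, being at most 11.0 and 16.9 CPM. WKY replicate 1 has the lowest bar and WKY replicate 3 the highest, and the 3 SHR bars lie between them.

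Of the 42 genes 25 had enough counts to be tested. The other 17 had 0 to 173 counts over the 6 libraries together, 13 of them at most 20. Col22a1, a fibril-associated collagen of tissue junctions, and Col26a1 had 0 counts in each library, which allows up to 0.151 to 0.187 CPM by counting error alone. The cartilage collagens were also near the limit. Col2a1, the main fibrillar chain of cartilage, had 5 counts in WKY replicate 1, 1 in WKY replicate 3 and 0 elsewhere, and the collagen IX genes Col9a1, Col9a2 and Col9a3 had at most 5 counts in any library. Col10a1, the network collagen of hypertrophic cartilage, reached 8 counts in SHR replicate 3 and at most 1 elsewhere. Of the other untested genes, Col4a3 and Col4a4, of the collagen IV in filtering and sensory epithelia, had up to 120 and 28 counts. Col6a6, a further chain of collagen VI, had 4 to 9 counts in each library and Col19a1, a fibril-associated collagen, 2 to 4. Col11a2 had at most 7 counts, and Col24a1, Col6a5, Col23a1, Col25a1 and Col28a1 at most 3.

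Between the strains, 0 of the 25 tested genes passed the edgeR quasi-likelihood test with batch as a term and Benjamini-Hochberg adjustment over all genes (adjusted p below 0.05), where 0.254% of all 12614 genes passed. Without adjustment 4 genes had p below 0.05, all fibrillar (16% of the 25, against 13.3% of all genes). Of these, 1 was higher in SHR (6.1% of all genes) and 3 were lower (7.18% of all genes). DESeq2 called 1, Col27a1, lower in SHR, where it called 5.33% of the genes it gave an adjusted p (2.77% higher and 2.56% lower). WKY and SHR had no overlapping libraries in 3 genes (12%, against 9.81% of all genes). These shares over the 25 genes lie near those of all genes. Of the 8 tested fibrillar genes alone, 4 had an unadjusted p below 0.05 (50%, against 13.3% of all genes), with 12.5% higher and 37.5% lower. The median log2 fold change, SHR over WKY, was 0.10 over the 25 genes and -0.02 over all genes tested, and 16 of the 25 were above 0 (64%, against 47.4% of all genes).

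Among the fibrillar genes, Col1a1 and Col1a2 encode the chains of collagen I, the main collagen of the adventitia and media. Col1a1 stood at 3846, 5940.2 and 10878 CPM in WKY and 8784, 7517 and 4559.5 CPM in SHR. The strains overlapped, and in batch 1 both SHR libraries lay above both WKY libraries while in batch 2 the WKY library lay above the SHR library. Its fitted strain difference was 0.10 on the log2 scale (SE 0.49, edgeR adjusted p = 0.949), made of 0.73 in batch 1 and -1.25 in batch 2. Col1a2 stood at 478, 1349.9 and 2386 CPM in WKY and 1664, 2089 and 2279 CPM in SHR, with WKY replicate 1 the lowest library. Its log2 fold change was 0.67 (SE 0.47, edgeR adjusted p = 0.59).

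Collagen III, which forms mixed fibres with collagen I in elastic arteries, was the fibrillar gene with non-overlapping libraries in the SHR direction. Col3a1 stood at 1156, 2034 and 2216 CPM in WKY and 3852, 3011 and 3062 CPM in SHR, so that each SHR library was above each WKY library. The log2 fold change was 0.89 (SE 0.31, unadjusted p = 0.0299, edgeR adjusted p = 0.334), with 1.10 in batch 1 and 0.47 in batch 2. DESeq2 gave an adjusted p of 0.0519. Among all genes tested 4.51% lay wholly higher in SHR. Fibroblast markers were also higher in each SHR library than in each WKY library when summed. In SHR replicate 3, 1 gene held 11360 of the 14620 CPM. Of the 10 markers, 1 passed edgeR as higher in SHR, where 0.103% of all genes did. The part of these markers in the level of Col3a1 was not tested.

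The other 3 fibrillar genes with an unadjusted p below 0.05 pointed the other way. Col27a1, a fibrillar collagen known best from cartilage, stood at 2.73, 2.33 and 9.76 CPM in WKY and 1.26, 1.17 and 2.34 CPM in SHR. The strains overlapped, SHR replicate 3 lying just above the lowest WKY library, but within each batch WKY was higher (log2 difference -1.40, SE 0.34, edgeR adjusted p = 0.227, DESeq2 adjusted p = 0.0276). Col5a3, a minor chain of collagen V, stood at 10.8, 7.19 and 18.7 CPM in WKY and 3.94, 5.86 and 1.77 CPM in SHR, each WKY library above each SHR library (log2 difference -1.65, SE 0.60, edgeR adjusted p = 0.355), as did 5.3% of all genes. Col11a1, a chain of collagen XI, which sits in the core of thin fibrils, stood at 529, 483 and 209 CPM in WKY and 405, 219 and 119.9 CPM in SHR. Both its strain values were ordered the same way within each batch, -0.70 in batch 1 and -0.80 in batch 2 on the log2 scale, with an edgeR adjusted p of 0.333 for the fitted -0.73 (SE 0.25).

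Collagen V nucleates collagen I fibrils. Its chain genes Col5a1 and Col5a2 did not follow each other. Col5a2 was the steadiest of the 25 genes, with 938, 847 and 1192 CPM in WKY and 963, 943 and 868 CPM in SHR, a spread of 1.41-fold from lowest to highest library. Col5a1 spread 4.28-fold, with 542, 638 and 2249 CPM in WKY and 620.4, 526 and 938 CPM in SHR. The high value belonged to WKY replicate 3. The fitted strain differences were -0.09 (SE 0.19, edgeR adjusted p = 0.875) for Col5a2 and -0.44 (SE 0.30, edgeR adjusted p = 0.581) for Col5a1.

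**Figure D2:**
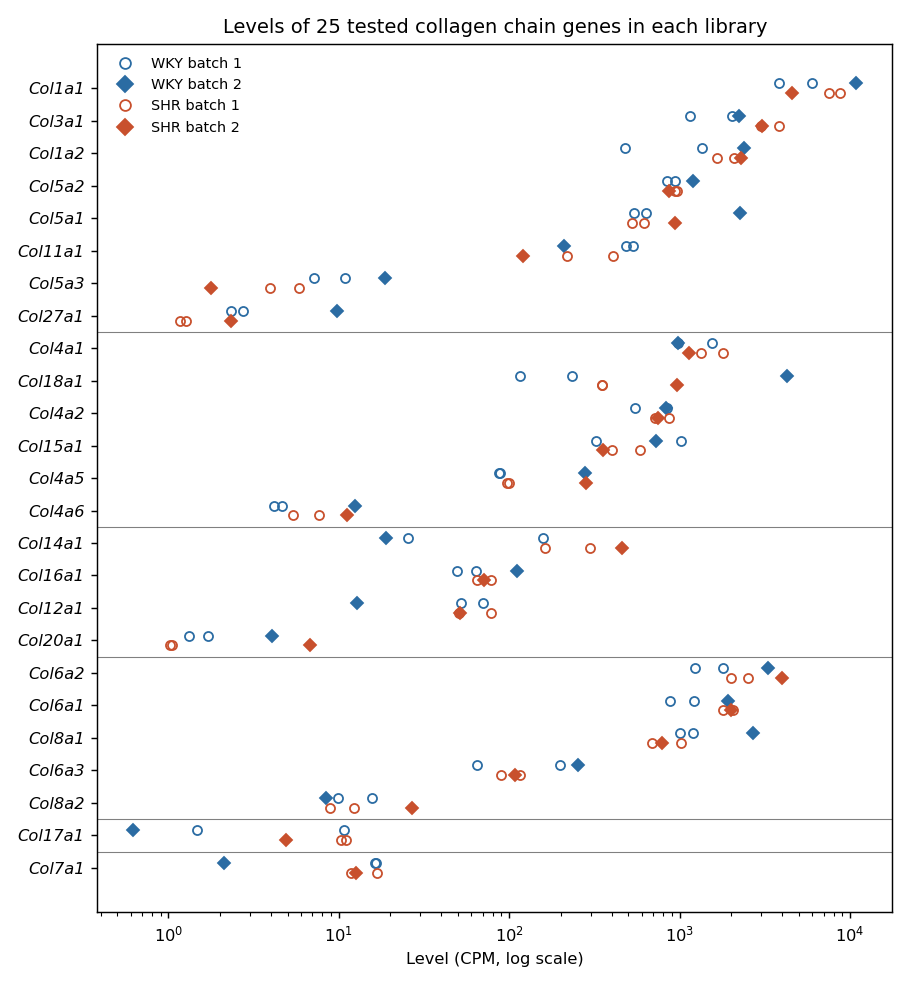
Level of each of the 25 tested collagen chain genes in each of the 6 libraries, in CPM on a log scale. Open circles are batch 1 and filled diamonds batch 2, WKY in blue and SHR in red, with horizontal lines between classes (fibrillar, basement membrane, fibril-associated, network, transmembrane and other, from the top). Filled blue diamonds, WKY replicate 3, are the highest value in 11 genes and the lowest in 5.

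In the basement membrane class 0 of 6 tested genes had an unadjusted p below 0.05 between strains, against 13.3% of all genes. Col4a1 and Col4a2 encode the 2 chain types of the common collagen IV trimer of vascular basement membranes. Col4a1 stood at 972, 1538 and 983 CPM in WKY and 1808, 1325 and 1142 CPM in SHR, and Col4a2 at 548, 841 and 829 CPM in WKY and 869.9, 721 and 749 CPM in SHR. Neither separated the strains, with log2 fold changes of 0.29 (SE 0.25) and 0.08 (SE 0.23) and edgeR adjusted p of 0.666 and 0.906. Col15a1 and Col18a1 encode collagens XV and XVIII, which link basement membranes to the matrix beneath, and collagen XVIII releases endostatin from its end. Col15a1 stood at 323, 1024 and 723 CPM in WKY and 588, 398 and 356 CPM in SHR, with both the lowest and the highest library in WKY (log2 difference -0.64, SE 0.46, edgeR adjusted p = 0.605).

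Of the fibril-associated genes, Col14a1 showed the widest strain difference. It encodes collagen XIV, which binds the surface of collagen I fibrils. It stood at 25.4, 157 and 19 CPM in WKY and 297, 162 and 461 CPM in SHR, so that the SHR libraries lay above the WKY libraries, by a small margin between SHR replicate 2 and WKY replicate 2. The fitted log2 fold change was 2.31 with an SE of 1.06 (edgeR adjusted p = 0.438, DESeq2 adjusted p = 0.233), and the batch 2 libraries differed 24.3-fold. With WKY replicate 2 left out it was 3.75 (adjusted p = 0.0903), and with WKY replicate 3 or SHR replicate 3 left out 1.33. Col16a1, of collagen XVI, stood at 49.3, 63.7 and 111 CPM in WKY and 78.4, 64.9 and 71 CPM in SHR (log2 difference 0.02, SE 0.25, edgeR adjusted p = 0.986), and Col12a1, of collagen XII, at 69.7, 51.9 and 12.7 CPM in WKY and 78.6, 50.5 and 51.6 CPM in SHR (log2 difference 0.70, SE 0.47, edgeR adjusted p = 0.581). WKY replicate 3 was the highest library for Col16a1 and stood far below the others for Col12a1.

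Network genes gave no strain call either, and 0 of 5 had an unadjusted p below 0.05, against 13.3% of all genes. Col6a1 and Col6a2, chains of the collagen VI filaments around cells, stood at 879, 1212 and 1913 CPM in WKY and 2056, 1804 and 2001 CPM in SHR and at 1231, 1798 and 3309 CPM in WKY and 2522, 1993 and 3989 CPM in SHR. In batch 1 both genes were higher in each SHR library than in each WKY library, while in batch 2 the strains differed by 0.06 and 0.27 on the log2 scale. The fitted log2 fold changes were 0.61 (SE 0.27, edgeR adjusted p = 0.404) and 0.47 (SE 0.25, edgeR adjusted p = 0.478). The third chain gene, Col6a3, did not follow, with 199.6, 64.6 and 253 CPM in WKY and 116, 89.6 and 109 CPM in SHR and a log2 fold change of -0.65 (SE 0.47, edgeR adjusted p = 0.605). Col8a1, of the collagen VIII made by endothelium and by smooth muscle, stood at 1001, 1199.7 and 2688 CPM in WKY and 688, 1017 and 783 CPM in SHR, with the highest value in WKY replicate 3 (log2 difference -0.83, SE 0.37, edgeR adjusted p = 0.409).

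The remaining classes held 1 tested gene each. Col17a1, the transmembrane collagen of epithelial hemidesmosomes, stood at 1.46, 10.7 and 0.622 CPM in WKY and 10.3, 11 and 4.89 CPM in SHR, with WKY replicates 1 and 3 apart from the other libraries (log2 difference 1.41, SE 0.85, edgeR adjusted p = 0.542). The difference was 2.90 (adjusted p = 0.0529) with WKY replicate 2 left out and 0.82 with either batch 2 library left out. Col7a1, of the anchoring fibrils under epithelia, stood at 16.6, 16.3 and 2.11 CPM in WKY and 16.8, 11.8 and 12.7 CPM in SHR, where WKY replicate 3 alone was low (log2 difference 0.62, SE 0.62, edgeR adjusted p = 0.707). The next genes of these classes by level, Col23a1 and Col28a1, had too few counts to be tested.

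The batch gave more differences than the strain. Between batch 2 and batch 1, with strain as a term, 8 of the 25 genes passed the edgeR test (32%), 7 higher and 1 lower, against 43.5% of all genes tested, of which 21% were higher and 22.5% lower. The same 8 genes were all that had an unadjusted p below 0.05, against 53% of all genes (26.1% higher and 27% lower). The libraries of the batches did not overlap in 7 genes above and 1 below, against 57.6% of all genes (27.2% above and 30.4% below); Col1a2 was among the 7 and Col27a1 was not. The share of collagen genes called was thus below that of all genes, and 7 of the 8 calls were higher in batch 2. DESeq2 called 8 higher and 3 lower, the 8 genes of edgeR among them, where it called 48% of the genes it gave an adjusted p (24.3% higher and 23.6% lower). Its 3 further calls were Col4a3, higher, and Col12a1 and Col17a1, lower. Batch 2 held 1 library of each strain. The median log2 fold change over the 25 genes was 0.48, against -0.00149 over all genes, and 18 of 25 were above 0 (72%, against 49.9%).

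Among the 6 tested basement membrane genes 3 rose in batch 2 (50%, against 21% of all genes called higher). Col4a5 and Col4a6 encode collagen IV chains found around smooth muscle, in a trimer other than that of Col4a1 and Col4a2. Col4a5 stood at 88.8, 87.1 and 279 CPM in WKY and 99.8, 97.6 and 282 CPM in SHR, both batch 2 libraries close to each other and far above all batch 1 libraries. It rose by 1.59 on the log2 scale (SE 0.12, edgeR adjusted p = 0.00116) and passed in each of the 12 settings tried, the adjusted p being at most 0.00944. Col4a6, its head-to-head neighbour, stood at 4.64, 4.18 and 12.5 CPM in WKY and 7.66, 5.35 and 11.2 CPM in SHR and rose by 1.15 (SE 0.27, edgeR adjusted p = 0.0192). The batch difference of Col4a5 was alike in the strains, 1.67 in WKY and 1.52 in SHR, and that of Col4a6 was 1.50 and 0.78. Smooth muscle markers rose in the same libraries, 6 of 8 tested passing where 21% of all genes were called higher. Their sum was 8698 CPM in WKY replicate 3 and 2176 CPM in SHR replicate 3, against 790 to 1053 CPM in batch 1. Also called higher were 3 of 10 fibroblast, 1 of 6 mesothelial, 1 of 4 pericyte and 1 of 2 cartilage markers tested. Of the endothelial markers 0 of 3 were, and of the leukocyte markers 0 of 2. The part of these markers in the collagen IV results was not tested.

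Col18a1 had the largest batch difference of the 25 genes, with 234, 116 and 4259 CPM in WKY and 349, 350.2 and 959.5 CPM in SHR. Both batch 2 libraries lay above all batch 1 libraries, and WKY replicate 3 was 24.4 times the mean of the other WKY libraries, while SHR replicate 3 was 2.74 times that of the other SHR libraries. The fitted rise was 3.33 on the log2 scale (SE 0.81, edgeR adjusted p = 0.0248). With WKY replicate 3 left out it was 1.45 with an adjusted p of 0.0597, and with the replicate number as a block the adjusted p was 0.0514. Leaving out any batch 1 library also ended the call, with adjusted p of 0.0876 and 0.0537 for WKY replicates 1 and 2 and 0.0514 and 0.057 for SHR replicates 1 and 2. Col4a3, removed by the filter on low counts, stood at 0.454, 0.264 and 1.31 CPM in WKY and 0.472, 0.459 and 6.24 CPM in SHR, and its neighbour Col4a4 at 0.353, 0.0529 and 0.435 CPM in WKY and 0.42, 0.306 and 1.46 CPM in SHR. SHR replicate 3 was the highest library for both, and Col4a3 was called higher in batch 2 by DESeq2 (adjusted p = 0.000244) and by edgeR with no filter (log2 difference 2.90, adjusted p = 0.0116). When a batch 1 library was left out, Col4a3 passed the filter through its batch 2 libraries (21 and 120 counts, against at most 9 in batch 1). It therefore entered the edgeR test by way of the batch where it is high. Its adjusted p there (0.0119 to 0.0468) is not separate support for a rise. Col4a3 was not tested when a batch 2 library was left out.

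Of the fibrillar genes, Col5a1 rose by 1.36 on the log2 scale (SE 0.31, edgeR adjusted p = 0.0175) and Col27a1 by 1.49 (SE 0.34, adjusted p = 0.0183), from the levels given above. Without WKY replicate 3 both were below their full value, at 0.70 and 0.93, with adjusted p of 0.0705 and 0.19. For Col5a1 the adjusted p was 0.0596 when WKY replicate 2 was left out and 0.0556 when SHR replicate 2 was, and for Col27a1 it was 0.0519 and 0.0586 when WKY replicates 1 and 2 were and 0.0754 with no strain term in the fit. Col11a1 fell by 1.33 on the log2 scale (SE 0.29, edgeR adjusted p = 0.0146), by a like amount in WKY (-1.28) and SHR (-1.38). It was the single collagen gene called lower in batch 2 by edgeR, and the call was lost with either batch 2 library left out (adjusted p of 0.0643 for that of WKY and 0.0734 for that of SHR).

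Col20a1, a fibril-associated collagen, stood at 1.72, 1.32 and 4.04 CPM in WKY and 1.05, 1.02 and 6.76 CPM in SHR and rose by 2.09 (SE 0.40, edgeR adjusted p = 0.0103), with both batch 2 libraries above all others. Without SHR replicate 3 its adjusted p was 0.0828. Col6a2 rose by 0.98 (SE 0.25, edgeR adjusted p = 0.0262), and its partner Col6a1 did not pass (0.48, SE 0.28, adjusted p = 0.208). The adjusted p of Col6a2 was 0.068 with the replicate block and 0.0472 to 0.111 with 1 library left out, the call remaining solely without SHR replicate 3. That of Col4a6 was 0.022 to 0.154, and its call was lost without WKY replicate 1, 2 or 3 and without SHR replicate 2. The number of collagen genes called was 3 with WKY replicate 3 left out, 5 each with WKY replicate 1, WKY replicate 2 and SHR replicate 2 left out, 10 with SHR replicate 3 left out, and 6 with the replicate block. Over all genes, 3972 to 4807 were called with 1 library left out, against 5491 in the full fit. Some of the collagen calls were gained. They were Col8a2 with WKY replicate 3 left out and Col17a1 with WKY replicate 2 left out. With SHR replicate 3 left out they were Col12a1, Col7a1, Col8a1 and Col16a1. Col4a3 was gained with any batch 1 library left out, having entered through the filter as described above.

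**Figure D3:**
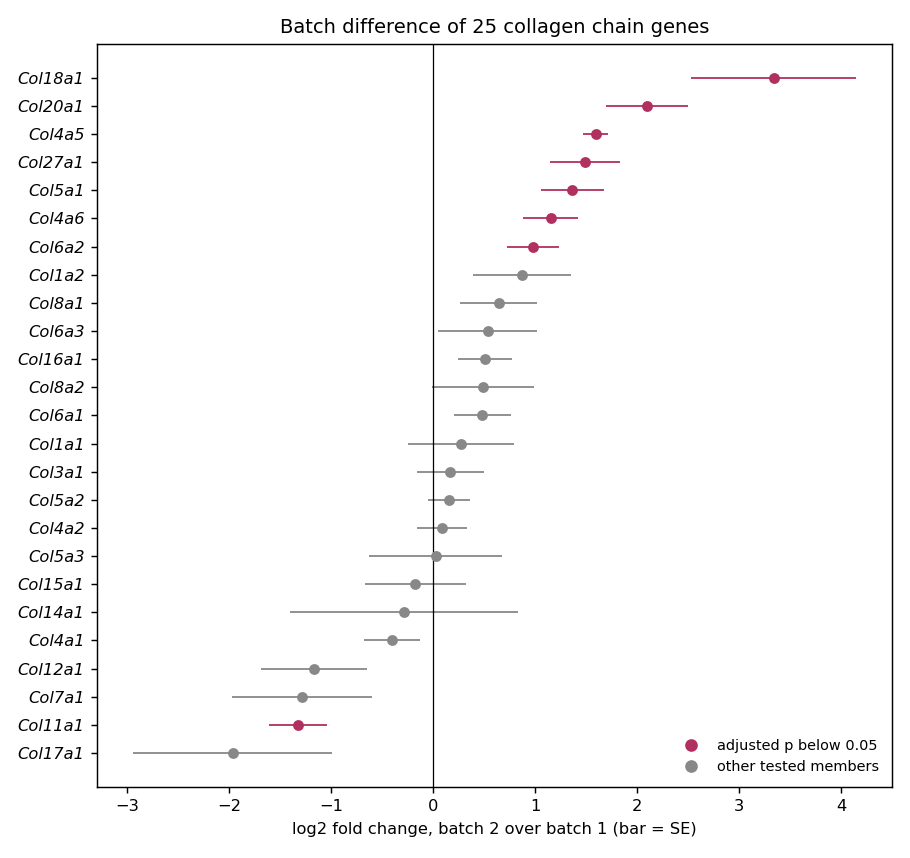
Fitted log2 fold change of batch 2 over batch 1 for the 25 tested collagen chain genes, in order of size, with bars of 1 SE. The 8 genes with an edgeR adjusted p below 0.05 are in dark red, 7 to the right of 0 with Col18a1 the farthest, and Col11a1 to the left.

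Strain differences were then set side by side by batch. The interaction of strain and batch, which asks whether the difference between SHR and WKY in batch 2 departs from that in batch 1, was called by edgeR in 0 of 25 collagen genes and in 0% of all genes. At an unadjusted p below 0.05 it was present in 9 of the 25 (36%, against 12.7% of all genes), with 3 above 0 (5.44% of all genes) and 6 below (7.22%). DESeq2 called 5 of the 27 it gave an adjusted p, 2 above 0 and 3 below, against 3.38% of all such genes (1.71% above and 1.67% below). In batch 2 each strain had a single library, and the fit had 2 residual degrees of freedom.

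The 5 genes called by DESeq2 were Col1a1 (adjusted p = 0.002), Col5a1 (0.0195), Col18a1 (2.17e-05), Col12a1 (0.0335) and Col7a1 (0.00339). By edgeR the interaction of Col7a1 was 2.78 on the log2 scale (SE 0.44, unadjusted p = 0.00148, adjusted p = 0.161), that of Col18a1 -3.15 (SE 0.65, adjusted p = 0.225) and that of Col1a1 -1.99 (SE 0.50, adjusted p = 0.264). For Col18a1 the strain difference was 1.00 in batch 1 and -2.15 in batch 2, and for Col7a1 -0.20 and 2.58. In both of these genes WKY replicate 3 was the library farthest from the rest. The other 4 genes with an unadjusted p below 0.05 were Col5a3 (0.00909), Col8a2 (0.0154), Col8a1 (0.0252) and Col16a1 (0.0318).

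WKY replicate 3 was the highest of the 6 libraries in 11 of the 25 genes (44%, against 24.6% of all genes tested) and the lowest in 5 (20%, against 22.3%). The 11 were Col1a1, Col1a2, Col5a1, Col5a2, Col5a3, Col27a1, Col18a1, Col4a6, Col16a1, Col8a1 and Col6a3, and the 5 were Col12a1, Col14a1, Col7a1, Col17a1 and Col8a2. WKY replicate 1 was the lowest in 9 genes (36%, against 18.5%), among them both collagen I genes, Col3a1, Col4a1 and Col4a2, Col6a1 and Col6a2. WKY replicates 1 and 3 thus stood at opposite ends for Col1a1 and Col1a2. Going from batch 1 to batch 2, 10 of the 25 genes moved in opposite directions in WKY and SHR (40%, against 20.9% of all genes), among them Col14a1, at -2.26 in WKY and 1.01 in SHR on the log2 scale. The strain difference was opposite between batches in 10 as well (40%, against 41% of all genes). These shares are descriptions of 6 libraries. WKY replicate 3 also had the highest summed smooth muscle, pericyte and cartilage markers, though 1 gene held 103.8 of the 108.4 CPM of its cartilage sum. The part of these markers in the collagen values was not tested.

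**Figure D4:**
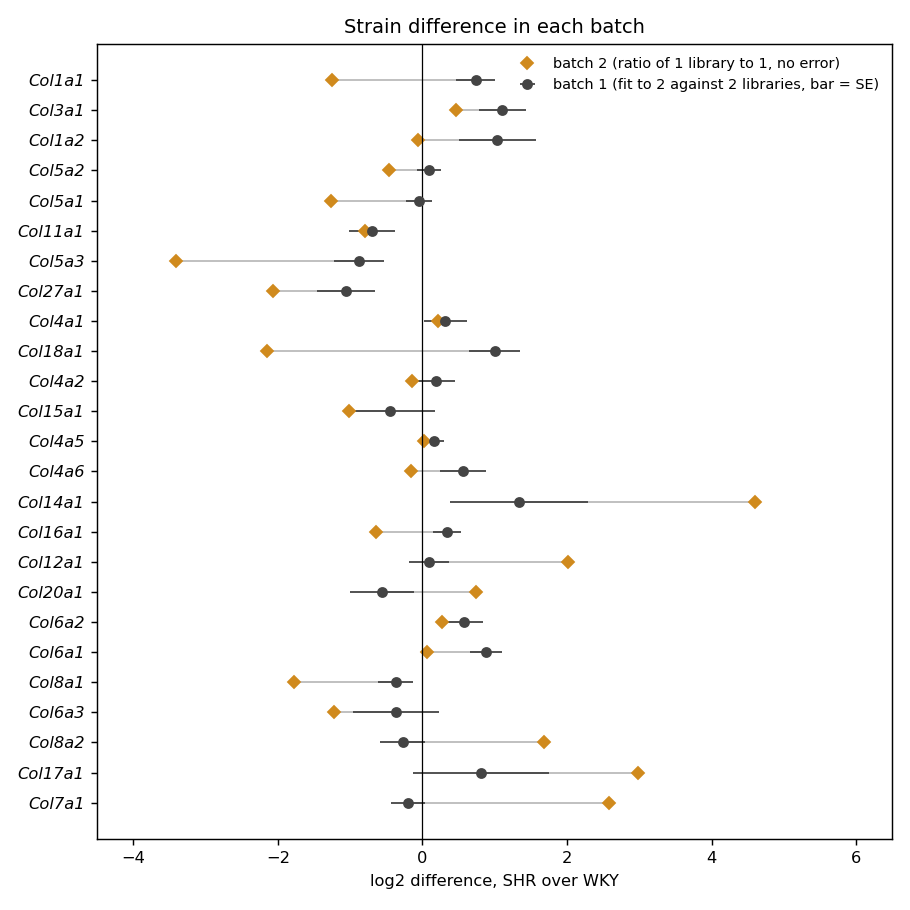
Strain difference of the 25 tested collagen chain genes on the log2 scale, SHR over WKY, in each batch. Black circles are the fit to 2 against 2 libraries of batch 1 with bars of 1 SE, and orange diamonds are the ratio of single libraries in batch 2, which has no error. Col14a1, Col17a1 and Col7a1 lie far to the right of 0 in batch 2, and Col5a3, Col18a1 and Col27a1 far to the left.

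Ratios between partner chains were taken from counts within a library, so that depth cancels. Col4a1 over Col4a2 ranged from 1.19 to 2.08, a spread of 1.75-fold, with the lowest ratios in the batch 2 libraries (1.19 in WKY and 1.52 in SHR). Col6a1 over Col6a2 spread 1.805-fold (0.502 to 0.905) and was also lowest in batch 2, and Col4a5 over Col4a6 spread 1.94-fold (13.0 to 25.2). The pairs of collagen I and V were less even. Col1a1 over Col1a2 was 8.05, 4.40 and 4.56 in WKY and 5.28, 3.60 and 2.00 in SHR, a spread of 4.03-fold, although the genes serve the same trimer. Col5a1 over Col5a2 was 1.89 and 1.08 in the batch 2 libraries of WKY and SHR and 0.558 to 0.753 in batch 1. Col6a1 over Col6a3 was 4.41 in WKY replicate 1 and 7.55 in WKY replicate 3, against 17.8 to 20.1 in the other 4 libraries. Col8a1 over Col8a2 had the widest range, from 29.1 in SHR replicate 3 to 320.2 in WKY replicate 3. The estimated counts of Col1a2 were not whole in any library, so its level is uncertain as far as reads were divided between genes. Values that were not whole also occurred in Col4a3, Col15a1 and Col23a1.

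**Figure D5:**
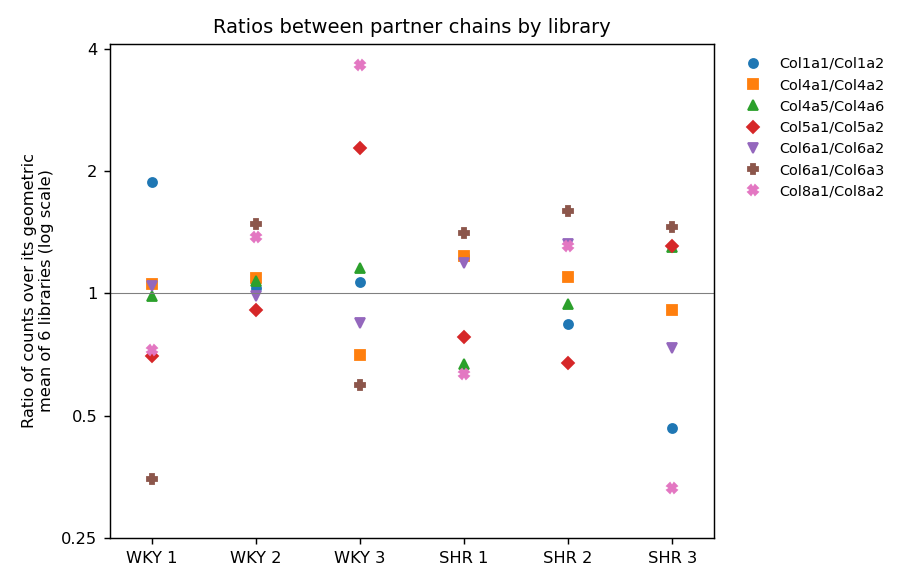
Ratio of counts between partner chain genes in each library, each divided by its geometric mean over the 6 libraries, on a log scale. Points of Col4a1/Col4a2 stay near 1, while Col8a1/Col8a2 and Col5a1/Col5a2 each have their own highest ratio in WKY replicate 3. Col8a1/Col8a2 and Col1a1/Col1a2 each have their own lowest ratio in SHR replicate 3.

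Collagen chains need enzymes and chaperones to fold, proteases to trim them, oxidases to crosslink them and receptors to bind them. Of 46 such genes 43 were found and 39 tested. Between strains 0 passed edgeR. Without adjustment 6 had p below 0.05, of which 3 stood higher in SHR and 3 stood lower (15.4%, against 13.3% of all genes). By DESeq2 2 of 42 rose in SHR and 1 fell (7.14%, against 5.33% of all genes). Creb3l1, a membrane-bound transcription factor that drives collagen I genes in mouse bone, stood at 64, 62.3 and 165 CPM in WKY and 104, 95.1 and 272 CPM in SHR (log2 difference 0.68, SE 0.12, edgeR adjusted p = 0.13, DESeq2 adjusted p = 5.87e-08), higher in SHR within each batch. Tgm2, a transglutaminase that crosslinks matrix proteins, stood at 62, 65.8 and 53.3 CPM in WKY and 197, 95.4 and 178 CPM in SHR, each SHR library above each WKY library (log2 difference 1.38, SE 0.30, edgeR adjusted p = 0.203, DESeq2 adjusted p = 0.00112). Itga1, the alpha chain of a collagen-binding integrin, stood at 75.1, 45.2 and 135 CPM in WKY and 19.3, 24.4 and 30.6 CPM in SHR, each WKY library above each SHR library (log2 difference -1.69, SE 0.27, edgeR adjusted p = 0.107, DESeq2 adjusted p = 7.27e-06), and edgeR called it without WKY replicate 2 (adjusted p = 0.0439, with 0.096 to 0.759 in the other edgeR alternatives).

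Others by the same rule were not called between strains by either tool. The propeptide protease gene Adamts2 stood at 18.3, 73.5 and 191 CPM in WKY and 150.4, 101 and 463 CPM in SHR (edgeR adjusted p = 0.368) and Adamts14, a related protease, at 3.23, 2.17 and 1.31 CPM in WKY and 1.1, 0.561 and 1.46 CPM in SHR (adjusted p = 0.481). Loxl3, a lysyl oxidase, stood at 853, 659 and 816 CPM in WKY and 617, 491 and 438 CPM in SHR, each WKY library above each SHR library (adjusted p = 0.337). Itga11, which binds fibrillar collagen on fibroblasts, stood at 1.46, 1.43 and 8.39 CPM in WKY and 0.997, 0.255 and 2.39 CPM in SHR (adjusted p = 0.357), and the lysyl hydroxylase gene Plod2 at 876, 581 and 678 CPM in WKY and 454, 493 and 598 CPM in SHR (adjusted p = 0.442).

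Between batches 10 of the 39 genes rose and 2 fell by edgeR, 30.8% against 43.5% of all genes. DESeq2 called 16 higher and 4 lower of 42, 47.6% against 48% of all genes, so the share lay below that of all genes by edgeR and near it by DESeq2. Creb3l1 rose 2.67-fold (SE 0.12 on the log2 scale, edgeR adjusted p = 0.00144) and Crtap, a partner of prolyl 3-hydroxylase, rose 6.05-fold (SE 0.31, adjusted p = 0.00281), with 2.47, 1.64 and 13.9 CPM in WKY and 2.62, 1.58 and 11.4 CPM in SHR. Bmp1, which removes the C-propeptide of fibrillar collagens, stood at 56, 59.9 and 158 CPM in WKY and 70, 50 and 129 CPM in SHR and rose by 1.28 (adjusted p = 0.00402). Tll1, a protease of the same family, went the other way with 50.4, 47.4 and 5.04 CPM in WKY and 13.4, 31 and 5.2 CPM in SHR, and fell by 2.65 (adjusted p = 0.0101). Ddr1, a receptor kinase for collagen, stood at 64.7, 61.5 and 197 CPM in WKY and 70.5, 49.2 and 225 CPM in SHR and rose by 1.78 (adjusted p = 0.00196), while Loxl2 fell by 0.98 (adjusted p = 0.0202) and its relative Loxl1 passed by DESeq2 (adjusted p = 0.032) and not by edgeR (1.17, adjusted p = 0.108). Adamts2 (adjusted p = 0.0336) and Itga11 (0.0187) rose as well, and the other 4 that rose were P4ha1, Fkbp10, Pcolce and Ddr2, which lie outside the naming rule. Calls were lost for Adamts2 (adjusted p up to 0.169) and Loxl2 (up to 0.105) with WKY replicate 3 or any SHR library left out, for Itga11 (up to 0.134) with WKY replicate 2 or 3 or SHR replicate 3 left out, and for Tll1 (0.0581) with WKY replicate 3 left out.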

How the data were processed

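Per the labels' protocols, total RNA was sequenced in paired reads of 100 bases (DNBSEQ). One table the authors deposited holds unnormalized estimated counts, and another holds log2 values whose batch means are equal in every gene (largest difference 7.5e-09). The sources used here do not say how either was made. The submitters' processing notes name Bowtie2 2.4.4, RSEM 1.2.28, DESeq2 1.42.1 and Rnor_6.0, without roles. Counts were rounded, 8.96% of them not being whole (tolerance 0.001). Strand handling is unknown.

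Genes passing filterByExpr by strain (12614 of 16770) were tested with edgeR 4.0.16 in R 4.3.3 (TMM, robust quasi-likelihood F-test, two-sided, batch and strain as terms, 3 residual degrees of freedom), with p-values adjusted by Benjamini-Hochberg over all of them. The interaction had its own fit. DESeq2 1.42.0, its size factors, no filter, other terms, batch 1 alone and each library left out were the alternatives. An SE is the log2 fold change divided by the root of F. Any 2 libraries differed far beyond sampling noise (chi-square per gene at least 46). Intervals and limits from counts cover counting error only.

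Members and lists were chosen with earlier results of these data known. Values in each library are given by a rule: the 2 genes of each class with the highest level, those with the smallest p by strain and by batch, and the called genes, with partner chains. Others were added after their values were seen (Col5a3, Col12a1, Col8a1, Col4a3 and Col4a4).

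Deviations of same-numbered libraries from their strain means correlated at 0.275, 0.364 and 0.63 for replicates 1, 2 and 3. Replicate 3 shares batch 2 by the labels. With the batch difference also removed, the correlation for replicates 1 and 2 was -0.179. The main fit holds the batch as a term, and the replicate block is an alternative.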

Additional observations from a re-analysis of the deposited data

How the results depend on the processing

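With 1 library left out, the count of collagen genes called between strains stayed at 0 and that between batches ranged from 3 to 10. DESeq2 called 1 collagen gene between strains and 5 for the interaction. The interaction count ranged from 0 to 1 (1 with WKY replicate 1 or WKY replicate 2 left out) without 1 batch 1 library, an alternative chosen after seeing the data, with 1 residual degree of freedom. Without a batch 2 library it could not be fitted. Over all genes, 32 were called between strains, and 730 by DESeq2, 6 with the replicate block, 2 without the batch term and 0 to 65 with 1 library left out. In the paired fit with the replicate block, 0 collagen genes were called between strains and 6 between batches, Col18a1 and Col6a2 being lost. Between batches, the count over all genes stayed within 1.5 times the full one in each alternative. The deposited log2 values gave strain differences of the same sign for the collagen genes named, apart from Col18a1 and Col20a1.

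Signs turned in differences not called in the full fit. Between strains, without the batch term, the log2 fold change was -1.47 for Col18a1, -0.0632 for Col16a1 and 0.32 for Col20a1. In batch 1 alone it was -0.20 for Col7a1, 0.0289 for Crtap, 0.0487 for Bmp1, -0.0785 for Ddr1, 0.09 for Col5a2 and -0.28 for Col8a2, and with the replicate block -0.00215 for Ddr1. With 1 library left out, ranges between strains were -0.31 to 0.74 for Col1a1, -0.66 to 1.00 for Col18a1, -0.19 to 0.35 for Col16a1, -0.55 to 0.14 for Col20a1, -0.20 to 1.12 for Col7a1, -0.31 to 0.0714 for Crtap, -0.23 to 0.0532 for Bmp1, -0.0392 to 0.36 for Loxl2, -0.0121 to 0.92 for Loxl1, -0.10 to 0.17 for Ddr1, -0.11 to 0.24 for Col4a2, -0.19 to 0.10 for Col5a2 and -0.27 to 0.74 for Col8a2. Ranges between batches were -0.85 to 1.15 for Col1a1, -0.17 to 0.47 for Col3a1, -0.50 to 0.24 for Col15a1, -2.26 to 1.00 for Col14a1, -0.0236 to 0.97 for Col16a1, -0.10 to 0.33 for Plod2, -1.04 to 0.79 for Adamts14, -0.26 to 0.28 for Tgm2, -0.35 to 0.11 for Loxl3, -1.48 to 1.06 for Col5a3, -0.14 to 0.42 for Col5a2, -0.10 to 0.26 for Col4a2, -0.13 to 1.29 for Col8a1 and -0.61 to 1.33 for Col8a2. Of these, Col8a2 was called with WKY replicate 3 left out (adjusted p = 0.0465), and Col8a1 (0.0306) and Col16a1 with SHR replicate 3 left out. Without the strain term Col14a1 was at 0.58 between batches. The cause was not tested. Low counts limit the 17 genes that were not tested.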
